A study of Rattus norvegicus with 6 samples.

Results

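The homeostatic microglia genes are 10 genes that mark resting microglia of the healthy brain: P2ry12, P2ry13, Gpr34, Csf1r, Cx3cr1, Tmem119, Selplg, Olfml3, Sall1 and Slc2a5. They are a list of marker genes given by symbol, and a gene was taken where a probe set carried its symbol and no other. All 10 were found, each with a single probe set, among 14497 genes with such a probe set, and all 10 passed the filter on low values that left 10947 genes for testing. The RNA came from male Sprague-Dawley rats and was hybridised to Affymetrix arrays. The tissue was microdissected from around an infarct, produced with a tungsten hook that lifted the middle cerebral artery transiently, or taken from healthy brain of naive rats. The 3 aged groups were naive rats of 18 to 20 months and stroke rats of 19 to 20 months at 3 d and at 14 d. The 3 young groups were naive rats of 3 to 5 months and stroke rats of 3 to 4 months at 3 d and at 14 d. Each group was 1 array of 1 RNA pool, made from 15 naive rats of either age, from 23 aged stroke rats per time point or from 19 young stroke rats per time point. The same naive arrays serve the 3 d and the 14 d comparisons, which are therefore not independent. The labels name no brain region for the naive tissue and give no sham-operated group, so that region, surgery and infarct cannot be told apart.

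Microglia are the resident macrophages of the brain. In the undamaged brain they sense nucleotides, chemokines and lipids through surface receptors, depend on signals from the receptor Csf1r for survival, and keep their identity under the transcription factor Sall1 and TGF-beta. In single-cell studies of mouse brain, microglia that respond to injury or plaques carry less RNA of several of these genes and more of genes such as Spp1 and Gpnmb, while macrophages that enter from blood lack most of them. In bulk tissue, more microglia and more RNA per cell cannot be told apart, and neither can fewer cells and less RNA.

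Every member was higher after stroke than in naive tissue, at both times and in both ages. At 3 d the change ran from 0.41 for Selplg to 2.25 for Slc2a5 on the log2 scale, with a median of 1.26, against a median of -0.03 over all 10947 genes. At 14 d it ran from 0.62 for Tmem119 to 2.32 for Slc2a5, with a median of 1.48, against -0.06 over all genes. Limma with Benjamini-Hochberg adjustment called 9 of 10 members higher at 3 d, where 14.4% of all genes were called higher, and 10 of 10 at 14 d, where 13.6% were. No member was lower at either time, against 7.87% and 11.4% of all genes. Selplg was the member that did not pass at 3 d. The error of each change is the standard error of a fit over all 6 arrays that adds an age effect to a time effect. The fit treats the aged and young arrays as repeated measurements, so spread between pools and any age difference of the response enter the error. Its variance is moderated, with 5.56 prior and 2 residual degrees of freedom, so the error is drawn largely from all genes and only partly from the gene itself. For 9 of 10 members all 4 stroke arrays lay above both naive arrays, which held for 23.8% of all genes.

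On the naive arrays the members lay between the 53.5th and the 94.5th percentile of all probe sets of their array, and on the stroke arrays between the 73.9th and the 99.2nd. None was near the low end of the scale.

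**Figure D1:**
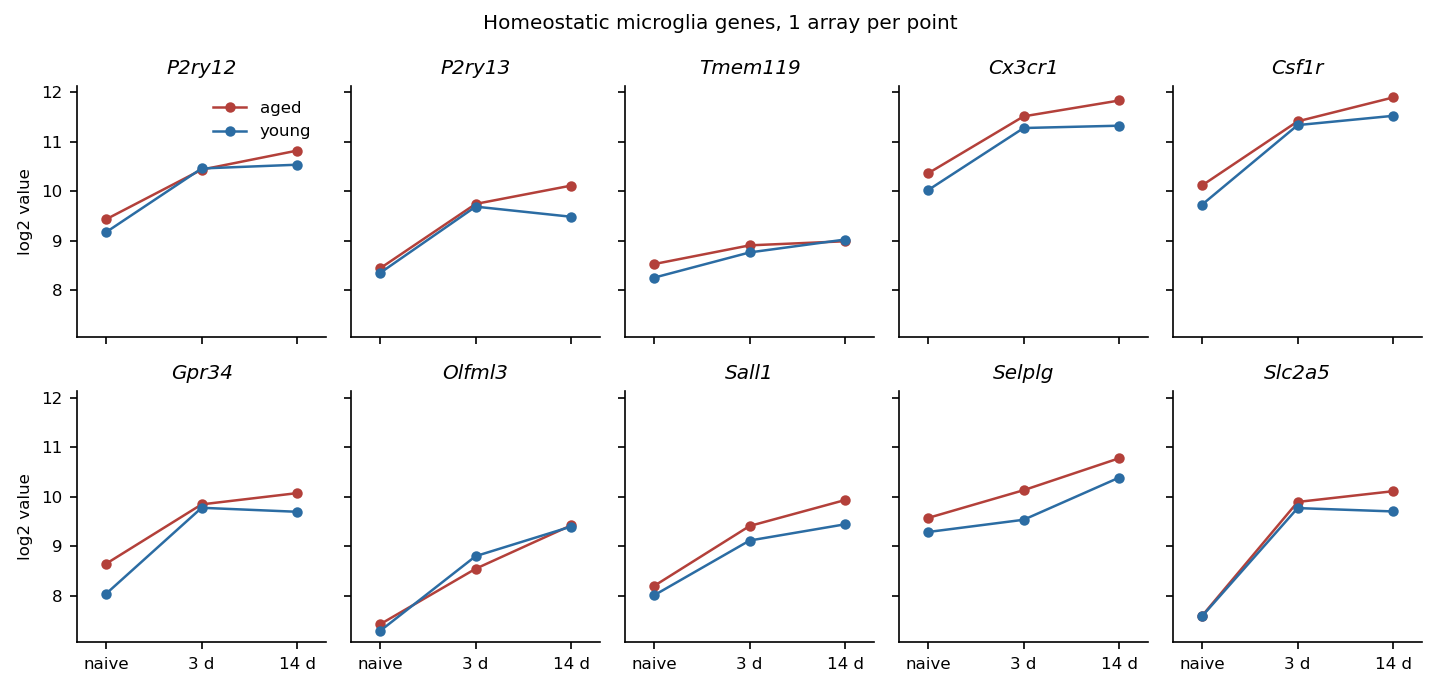
Log2 value (y axis) of each member on each array (1 point per array and pool) in naive tissue, at 3 d and at 14 d after stroke (x axis), for aged (red) and young (blue) rats. Slc2a5 rises most at both times, Selplg least at 3 d (0.41) and Tmem119 least at 14 d (0.62), and only Selplg has a stroke array (young, 3 d, 9.53) below a naive array (aged, 9.57).

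P2ry12 and P2ry13 encode receptors for ADP, and P2ry12 guides microglial processes toward damaged cells. P2ry12 had log2 values of 9.43, 10.44 and 10.82 on the aged arrays (naive, 3 d, 14 d) and 9.17, 10.46 and 10.54 on the young arrays. All 4 stroke arrays lay about 1 log2 unit or more above the naive array of their age. The change was 1.15 ± 0.13 at 3 d (a 2.22-fold rise, adjusted p = 0.00102) and 1.38 ± 0.13 at 14 d (2.60-fold, adjusted p = 0.000482).

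For P2ry13 the aged arrays gave 8.44, 9.75 and 10.12 and the young arrays 8.35, 9.69 and 9.49. The stroke arrays again stood clear of both naive arrays, and the aged 14 d array was the highest. P2ry13 rose by 1.32 ± 0.17 at 3 d (adjusted p = 0.00151) and by 1.41 ± 0.17 at 14 d (adjusted p = 0.00117). In the RefSeq gene order of assembly GRCr8, P2ry12 and P2ry13 are neighbouring protein-coding genes.

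Gpr34, which encodes a receptor for lysophosphatidylserine, was at 8.64, 9.84 and 10.07 on the aged arrays and at 8.03, 9.77 and 9.69 on the young arrays. Its naive arrays differed more by age than those of any other member, by 0.61 (aged minus young), and the 3 d arrays by 0.07. Gpr34 rose by 1.47 ± 0.15 at 3 d (2.77-fold, adjusted p = 0.000643) and by 1.55 ± 0.15 at 14 d (2.92-fold, adjusted p = 0.000541).

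Csf1r encodes the receptor for the growth factors Csf1 and Il34, on which microglia depend. Its values were 10.12, 11.42 and 11.90 on the aged arrays and 9.73, 11.34 and 11.53 on the young arrays. The stroke and naive arrays did not overlap, and the 14 d array was the highest in each age. Csf1r rose by 1.45 ± 0.13 at 3 d (2.74-fold, 95% confidence interval 2.21 to 3.39, adjusted p = 0.000354) and by 1.79 ± 0.13 at 14 d (3.46-fold, 2.79 to 4.28, adjusted p = 0.000167).

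Cx3cr1 encodes the receptor for the neuronal chemokine fractalkine. It measured 10.36, 11.52 and 11.84 on the aged arrays and 10.02, 11.28 and 11.33 on the young arrays. In young rats nearly all of its rise was present at 3 d. The changes were 1.21 ± 0.13 at 3 d (adjusted p = 0.000704) and 1.39 ± 0.13 at 14 d (adjusted p = 0.000388). Csf1r, Cx3cr1 and Selplg are also carried by blood monocytes and other macrophages.

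Promoter windows, 250 bases before to 50 after the start of transcription, were listed for 6 of 10 members in the RefSeq table of assembly GRCr8. Those of Csf1r and Cx3cr1, a growth factor receptor and a chemokine receptor, and of Slc2a5, the member with the largest rise, are given 5′ to 3′ on the strand of the gene. Capitals mark matches on either strand to the PU box GAGGAA, a site of the macrophage factor Spi1 (PU.1), and to the overlapping ETS core AGGAAG. The motifs were picked for their role in macrophages.
Csf1r, GRCr8 chr18:56834129-56834428, plus strand: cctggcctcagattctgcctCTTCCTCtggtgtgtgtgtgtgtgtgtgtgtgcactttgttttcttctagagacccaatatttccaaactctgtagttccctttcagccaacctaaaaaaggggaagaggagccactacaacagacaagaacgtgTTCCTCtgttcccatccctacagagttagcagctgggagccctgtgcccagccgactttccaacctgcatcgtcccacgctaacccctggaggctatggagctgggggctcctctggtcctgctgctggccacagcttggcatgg
Cx3cr1, GRCr8 chr8:128677017-128677316, minus strand: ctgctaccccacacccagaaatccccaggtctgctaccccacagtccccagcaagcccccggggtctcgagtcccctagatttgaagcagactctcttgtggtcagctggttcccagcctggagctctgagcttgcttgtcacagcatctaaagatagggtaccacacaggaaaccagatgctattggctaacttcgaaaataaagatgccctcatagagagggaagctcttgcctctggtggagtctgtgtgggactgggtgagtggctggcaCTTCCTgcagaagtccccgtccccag
Slc2a5, GRCr8 chr5:165865929-165866228, plus strand: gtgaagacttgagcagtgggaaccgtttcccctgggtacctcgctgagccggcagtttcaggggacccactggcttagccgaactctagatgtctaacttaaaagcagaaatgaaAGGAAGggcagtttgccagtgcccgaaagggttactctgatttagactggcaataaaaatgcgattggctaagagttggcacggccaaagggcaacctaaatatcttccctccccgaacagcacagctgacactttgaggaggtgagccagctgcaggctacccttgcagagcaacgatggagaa

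The PU box was found in 2 of 6 member promoters (Csf1r and Gpr34) and in 27.3% of 19005 promoters of protein-coding genes. The ETS core was found in 4 of 6 (Olfml3, Slc2a5, Cx3cr1 and Csf1r) and in 33.4% of all promoters. Of other motifs searched on both strands, the RUNX motif TGTGGT was in 2 of 6 (Cx3cr1 and Gpr34) and in 15.8% of all. The AP-1 motif TGANTCA was in 0 of 6 windows and in 6.6% of all, and the IRF motif in 0 of 6 and in 3.6% of all. A match is a stretch of letters and no measured binding.

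Tmem119 and Selplg, neighbouring protein-coding genes in the same RefSeq order, were the members with the smallest changes at 3 d. Tmem119 encodes a membrane protein used as a microglia marker, and its values were 8.53, 8.91 and 8.99 on the aged arrays and 8.25, 8.76 and 9.03 on the young arrays. The stroke arrays were above both naive arrays by a narrow margin, with the lowest stroke value at 8.76 and the highest naive value at 8.53. Tmem119 rose by 0.45 ± 0.13 at 3 d, a 1.36-fold change with a 95% confidence interval of 1.10 to 1.68 and an adjusted p = 0.0458, and by 0.62 ± 0.13 at 14 d, a 1.53-fold change with an interval of 1.24 to 1.89 and an adjusted p = 0.0132. The call at 3 d ended under quantile normalization, median centring, no filter and age left out of the model, and without any of the 4 naive and 3 d arrays, where the change ranged from 0.33 to 0.56 and the adjusted p from 0.057 to 0.28. At 14 d the call ended without the aged naive array (0.73, adjusted p = 0.0692) or the young naive array (0.51, adjusted p = 0.123).

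Selplg encodes PSGL-1, a ligand of the selectins through which leukocytes roll on vessel walls. Its aged arrays gave 9.57, 10.13 and 10.78 and its young arrays 9.28, 9.53 and 10.39. The young 3 d array lay just below the aged naive array, so the 3 d and naive groups overlapped, while both 14 d arrays lay above all others. The change at 3 d was 0.41 ± 0.13 (adjusted p = 0.0621), and at 14 d Selplg rose by 1.16 ± 0.13, a 2.23-fold change (adjusted p = 0.00097). At 3 d Selplg did pass with a stricter filter, with trended and robust variances and without either 14 d array, with adjusted p between 0.0138 and 0.0449.

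Olfml3 encodes a secreted olfactomedin-like protein. It was at 7.42, 8.54 and 9.42 on the aged arrays and at 7.28, 8.80 and 9.40 on the young arrays. The order naive, 3 d, 14 d was the same in both ages, with the 2 ages nearly equal at 14 d. Olfml3 rose by 1.32 ± 0.14 at 3 d (2.49-fold, adjusted p = 0.000666) and by 2.06 ± 0.14 at 14 d (4.16-fold, adjusted p = 0.000132).

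Sall1 encodes the zinc finger transcription factor that maintains microglial identity in mice. Its values were 8.19, 9.41 and 9.93 on the aged arrays and 8.004, 9.11 and 9.44 on the young arrays. Both naive arrays lay below all 4 stroke arrays, and the aged array was the higher at each time. Sall1 rose by 1.16 ± 0.13 at 3 d (2.24-fold, 95% confidence interval 1.82 to 2.76, adjusted p = 0.000894) and by 1.59 ± 0.13 at 14 d (3.01-fold, 2.44 to 3.71, adjusted p = 0.000236).

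Slc2a5 encodes the fructose transporter GLUT5, which in brain is found on microglia. The aged arrays gave 7.59, 9.89 and 10.11 and the young arrays 7.58, 9.77 and 9.70. The naive arrays of the 2 ages differed by 0.01, and every stroke array was more than 2 log2 units higher. Slc2a5 rose by 2.25 ± 0.14 at 3 d, a 4.75-fold change with an interval of 3.79 to 5.94 (adjusted p = 1e-04), and by 2.32 ± 0.14 at 14 d, a 5.00-fold change with an interval of 4.00 to 6.25 (adjusted p = 0.000122). Ordered from the largest rise to the largest fall, it was 103rd of 10947 genes at 3 d and 92nd at 14 d.

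Within each age the changes can be read from a single pair of arrays, without a test. In aged rats 8 of 10 members were at least 2-fold higher at 3 d than naive, where 5.45% of all genes were, and 9 of 10 at 14 d, where 7.49% were. In young rats the same counts were 8 of 10 at 3 d, with 6.94% of all genes, and 9 of 10 at 14 d, with 4.88%. Tmem119 fell short at both times and Selplg at 3 d, in both ages. P2ry12 on the aged 3 d array, at 1.01, was the lowest of those past the 2-fold mark.

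**Figure D2:**
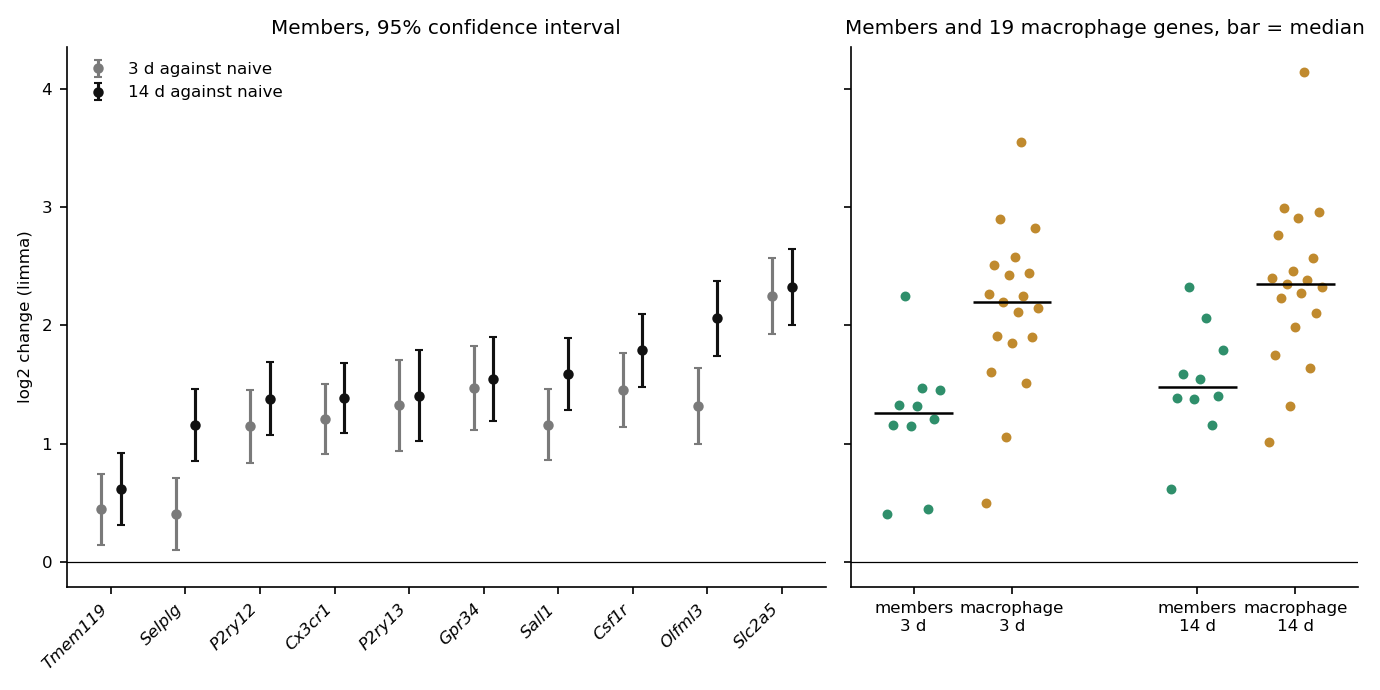
Left, log2 change of each member (y axis) at 3 d (grey) and 14 d (black) against naive, with bars for the 95% confidence interval of the fit over 6 arrays. Right, the same changes of the 10 members (green) beside 19 general macrophage genes (ochre), with a bar at each median: 1.26 and 2.20 at 3 d, 1.48 and 2.35 at 14 d.

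Between the 2 times after stroke, the change of a member does not rest on its naive level. Limma called 2 of 10 members higher at 14 d, where 1.34% of all genes were called higher, and 0 lower, where 1.82% were. Selplg rose by 0.75 ± 0.13 (1.68-fold, adjusted p = 0.0247), higher on the 14 d array by 0.65 in aged and by 0.85 in young rats. Olfml3 rose by 0.74 ± 0.14 (1.67-fold, adjusted p = 0.0329), by 0.88 in aged and by 0.60 in young rats. Sall1 (0.43 ± 0.13) and Csf1r (0.34 ± 0.13) had adjusted p = 0.186 and 0.356. With 1 array left out the change ranged from 0.30 to 0.55 for Sall1 and from 0.18, without the aged 3 d array, to 0.49 for Csf1r. Without the aged or the young naive array neither call held, with adjusted p = 0.0699 for Olfml3 and 0.06 for Selplg. That of Olfml3 also ended without the aged 3 d array (0.57, adjusted p = 0.264), and that of Selplg without the young 3 d array (0.62, adjusted p = 0.195) and with age left out of the model (adjusted p = 0.207).

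The other members were not called between the 2 times. The 95% confidence interval of the change ran from -0.08 to 0.54 for P2ry12, from -0.11 to 0.48 for Cx3cr1 and from -0.13 to 0.47 for Tmem119. It ran from -0.25 to 0.40 for Slc2a5, from -0.28 to 0.43 for Gpr34 and from -0.30 to 0.47 for P2ry13. The last 3 members differed in sign between the ages, with P2ry13 at 0.37 in aged and -0.21 in young rats, Gpr34 at 0.23 and -0.08, and Slc2a5 at 0.22 and -0.07. All 10 members were higher at 14 d than at 3 d on the aged arrays, as were 49.4% of all genes. On the young arrays 7 of 10 were, against 35.9% of all genes.

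The comparison of aged with young rats asked whether these genes differ with age over the 3 conditions. Limma called 0 of 10 members and 0% of all genes in either direction. Without adjustment p was under 0.05 for 5 of 10 members, all higher in aged rats, and for 7.78% of all genes. The largest of these differences was that of Selplg, 0.42 ± 0.11 (adjusted p = 0.63), followed by Cx3cr1 at 0.36 ± 0.10, Gpr34 at 0.35 ± 0.12, Sall1 at 0.32 ± 0.10 and Csf1r at 0.28 ± 0.11 (each with adjusted p = 0.631). Olfml3 was the only member with a difference below 0, at -0.03 ± 0.11.

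By single arrays, aged exceeded young in 10 of 10 members on the naive arrays, in 8 of 10 at 3 d and in 9 of 10 at 14 d. Over all genes the shares were 48.8%, 37.5% and 52.1%. The median difference of the members was 0.27 in naive tissue, 0.10 at 3 d and 0.38 at 14 d. Exceptions were P2ry12 (-0.02) and Olfml3 (-0.26) at 3 d and Tmem119 (-0.04) at 14 d. The 19 general macrophage genes had a median age difference of 0.34 in the same fit.

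**Figure D3:**
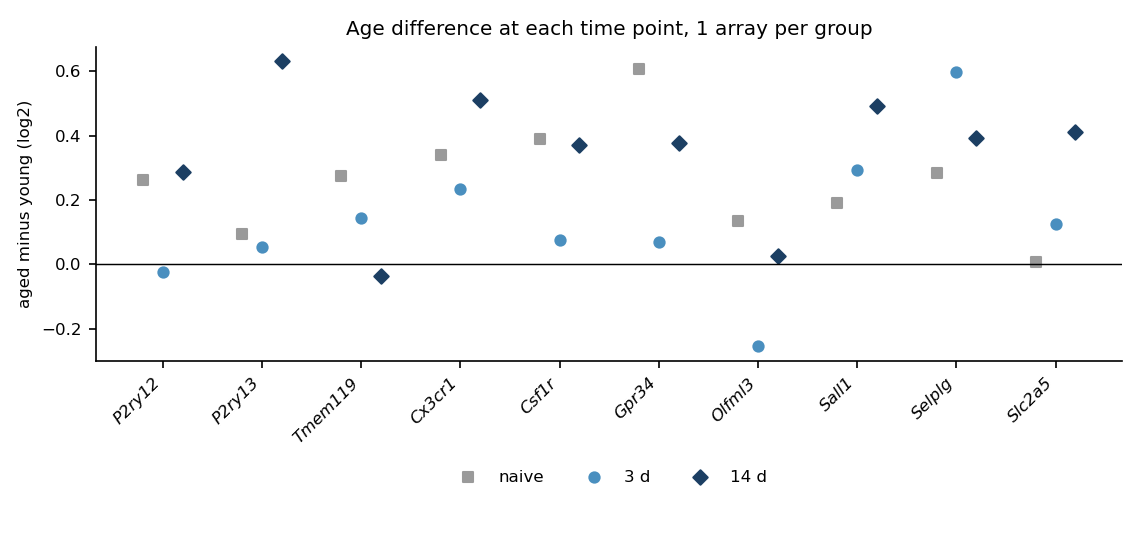
Aged minus young difference in log2 value (y axis) of each member (x axis) in naive tissue (grey squares), at 3 d (light blue circles) and at 14 d (dark blue diamonds), from 1 array per group with no error. Points above 0 are higher in aged rats, as all 10 naive points are. The widest gaps are P2ry13 at 14 d (0.63), Gpr34 in naive tissue (0.61) and Selplg at 3 d (0.60).

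Whether the response to stroke differed between the ages was tested with a term for the aged response minus the young response, averaged over 3 d and 14 d, which left 1 residual degree of freedom. Limma called 0 of 10 members and 0% of all genes. Without adjustment p was under 0.05 for 0 of 10 members and for 2.54% of all genes. The estimates ran from -0.38 ± 0.25 for Gpr34 to 0.26 ± 0.25 for Slc2a5, and every adjusted p was 0.998. The 95% confidence interval for P2ry12, from -0.74 to 0.48 on the log2 scale, spans differences in either direction, as did that of every other member.

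Ligands and partners of these receptors did not all move with them. Csf1, a ligand of Csf1r, rose by 1.06 ± 0.15 at 3 d and by 1.36 at 14 d (adjusted p = 0.00292 and 0.000984). Il34, the other ligand, had log2 values of 8.21, 8.20 and 8.33 on the aged arrays and 8.34, 8.32 and 8.34 on the young arrays, with changes of -0.01 ± 0.12 and 0.06 and adjusted p = 0.952 and 0.752. Cx3cl1, which encodes fractalkine, was at 10.71, 10.53 and 10.53 on the aged arrays and 10.96, 10.54 and 10.63 on the young arrays. Its changes of -0.30 ± 0.12 and -0.26 did not pass (adjusted p = 0.123 and 0.173), and both naive arrays lay above all 4 stroke arrays. Selp, the gene of P-selectin, a ligand of Selplg, did not reach the filter on any array and was not tested, where it was between 5.35 and 6.0.

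Among enzymes and receptors of extracellular nucleotides, Entpd1, which degrades ATP and ADP, rose by 1.27 at 3 d and 1.17 at 14 d. Nt5e, which makes adenosine, rose by 1.05 and 1.19. P2ry6, a receptor for UDP, rose by 1.98 and 1.70. P2ry14, a receptor for UDP-glucose, rose by 1.19 and 0.78. P2rx4 and P2rx7, ATP-gated channels, rose by 1.15 and 0.90 at 3 d and by 1.299 and 1.13 at 14 d. P2ry1, another ADP receptor, did not reach the filter on any array. Of the glucose transporters, Slc2a1 rose by 0.63 at 3 d (adjusted p = 0.0183) and was at 0.33 at 14 d (adjusted p = 0.13), and Slc2a3 was at -0.06 and -0.27 (adjusted p = 0.783 and 0.229). In all, 8 of 11 tested genes of this list rose at 3 d and 7 of 11 at 14 d, and 0 fell. Over all genes 14.4% were called higher at 3 d and 13.6% at 14 d, shares to set beside this list and those below.

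Of 12 regulators of microglia 7 rose at 3 d and 8 at 14 d, and 0 fell, with medians of 1.21 and 1.36. Among them were Irf8 (2.11 at 3 d and 2.57 at 14 d) and Spi1 (1.91 and 1.99), transcription factors of macrophages. Tgfb1 (2.11 and 2.28), its receptor Tgfbr1 (1.95 and 1.78) and Nrros (1.53 and 1.90), which holds latent TGF-beta on microglia, rose as well. Smad3, a mediator of TGF-beta signals, rose by 0.53 at 14 d (adjusted p = 0.0156). Mef2a (-0.10 and 0.06), Bin1 (-0.16 and -0.07) and Egr1 (-0.16 and -0.15) did not pass.

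A list of other genes, picked as microglia-enriched among brain cells, rose in 13 of 18 at each time, with medians of 1.21 at 3 d and 1.47 at 14 d. Enrichment was not measured here. Cst3 (0.06 and 0.39), Gas6 (0.003 and 0.33), Rgs2 (-0.14 and -0.13) and Bin1 (-0.16 and -0.07) were not called at either time. Fcrl2, an Fc receptor-like gene with the synonym Fcrls, rose by 4.52 and 4.21, Trem2, a lipid receptor, by 1.99 and 2.33, Rgs1 by 1.99 and 2.02, Tgfbr1 by 1.95 and 1.78, and Hpgds, a prostaglandin synthase, by 1.63 and 2.40. Values of Fcrl2 were 6.29 and 6.40 on the aged and young naive arrays and 10.32 to 10.92 on the 4 stroke arrays. Both naive values lay below the 40th percentile of their array (6.56 and 6.55), so Fcrl2 passed the filter through the stroke arrays. The same held for Rgs1 (4.64 and 4.99) and Hpgds (6.027 and 5.675). Unlike the members, these 3 genes were thus low in healthy brain, and their changes start from low naive values.

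Genes of macrophages in general rose more than most members, by a median of 2.20 at 3 d and 2.35 at 14 d, with 19 of 19 called higher at each time. By the larger of the changes at 3 d and 14 d, the first 5 were Cd68 (3.55 and 4.14), a lysosomal protein, C1qc (2.90 and 2.99), a complement subunit, Ptprc (2.82 and 2.95), the leukocyte antigen CD45, Itgb2 (2.44 and 2.91) and Itgam (2.51 and 2.76), subunits of an integrin. At 3 d Slc2a5 exceeded 11 of the 19, and 7 members exceeded only Ctss (0.50) and Coro1a (1.06). Tmem119 and Selplg lay below all 19 at 3 d. At 14 d Olfml3 exceeded 5 of the 19, Selplg 1 and Tmem119 none. Their summed level on the linear scale was 27413 and 25364 at 3 d and 39663 and 24984 at 14 d (aged and young), against 8155 and 6078 in naive tissue. The difference between the 2 lists was not tested, and the part of macrophage RNA in the members' rise was not tested.

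Genes of disease-associated microglia, a state described in mice, rose in 15 of 20 at 3 d and 17 of 20 at 14 d, with medians of 1.40 and 1.55. Spp1 rose by 5.00 and 3.67, Clec7a by 4.55 and 4.46, Lgals3 by 4.27 and 3.42, Gpnmb by 4.13 and 3.99 and Igf1 by 2.47 and 3.02. Of the genes not called at either time, Cst7 was at 0.33 and 0.11, Lpl at 0.20 and 0.03 and Fth1 at 0.05 and 0.02.

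**Figure D4:**
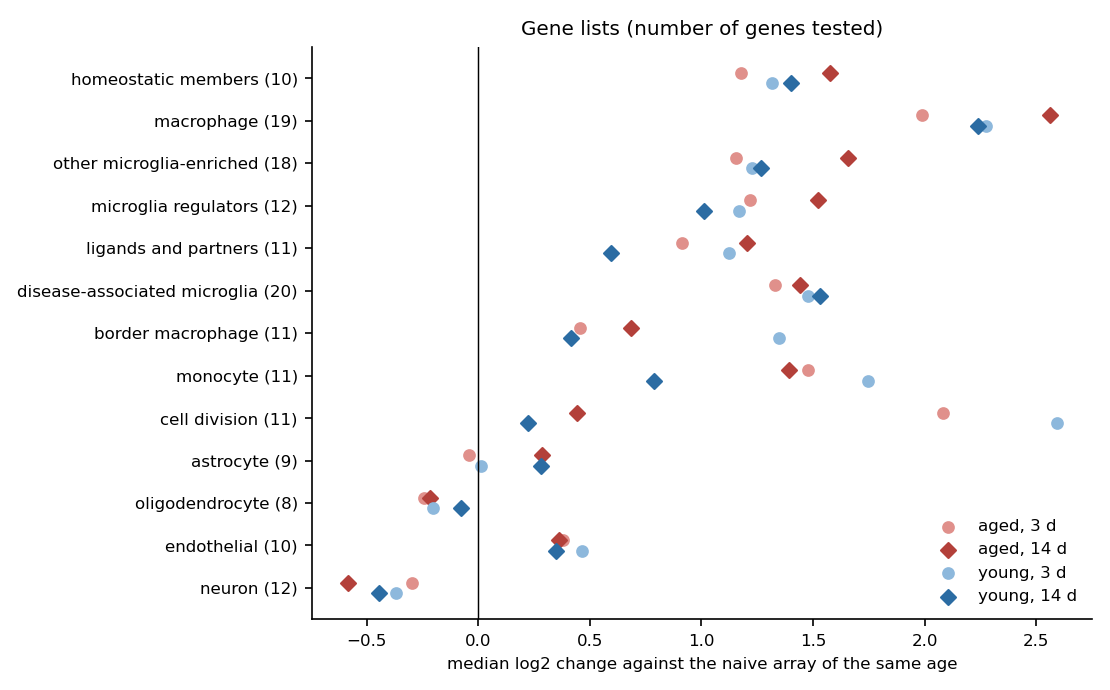
Median log2 change (x axis) of each gene list (y axis, number of genes tested in brackets) against the naive array of the same age, for aged rats (red) and young rats (blue) at 3 d (light circles) and 14 d (dark diamonds), 1 array per group and no error. The homeostatic members sit between 1.18 and 1.57 in all 4 pairs, the macrophage genes between 1.99 and 2.56, and the neuronal genes between -0.30 and -0.59.

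Some markers of other cell types moved as well, and their part in the rise of the members was not tested. Over all genes 14.4% were called higher and 7.87% lower at 3 d, and 13.6% and 11.4% at 14 d. Monocyte markers rose in 9 of 11 at 3 d and 8 of 11 at 14 d, among them Cd44 (2.56 and 2.296), Plac8 (2.08 and 2.64), Cd14 (2.32 and 1.34), Fn1 (2.299 and 1.67) and F10 (1.25 and 2.70). Arg1 (0.16 and -0.38) and Msrb1 (-0.14 and -0.14) were not called at either time, and Ly6c and Ccr1 did not reach the filter on any array. Cd44, Plac8, Cd14, F10 and Ccr2 lay below the 40th percentile of both naive arrays and passed the filter through stroke arrays. Ccr2, the chemokine receptor of inflammatory monocytes, rose by 1.68 and 0.998, with log2 values of 5.32, 6.93 and 6.71 on the aged arrays and 5.53, 7.27 and 6.13 on the young arrays. The summed level of the 13 measured monocyte markers on the linear scale was 4898 and 6163 at 3 d and 4952 and 3871 at 14 d (aged and young), against 2168 and 1999 in naive tissue. The monocyte count at 14 d was 3 without the aged naive array and 4 without the young naive array.

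The summed level of the members themselves was 12428 and 11236 at 3 d and 16510 and 12612 at 14 d (aged and young), against 5651 and 4586 in naive tissue. Border macrophage markers rose in 6 of 11 at each time, led by Folr2 (2.95 and 1.64), Siglec1 (2.35 and 2.44), Mrc1 (1.64 and 1.55), Colec12 (0.53 and 1.41) and Lyve1 (1.37 and 0.54). Their summed level was 3240 and 3912 at 3 d and 3261 and 2340 at 14 d, against 1276 and 1213 in naive tissue.

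Of 13 neutrophil markers 9 did not reach the filter on any array, among them S100a8 and S100a9, and 3 of the other 4 rose at 3 d (Mmp8, Csf3r and Mmp9). Of 10 lymphocyte markers 7, with Cd3e and Cd3g among them, did not reach it, and 0 of the other 3 were called at either time by limma. The neutrophil sum was 1590 and 1636 at 3 d and 1702 and 1203 at 14 d, against 860 and 848 in naive tissue. Its rise lay in Csf3r, Mmp8 and, at 3 d, Mmp9, while S100a8 was between 3.43 and 3.72 on all arrays. Mmp8 (5.373 aged and 5.43 young in naive tissue) passed the filter only through stroke arrays. The lymphocyte sum was 544 and 518 at 3 d and 635 and 611 at 14 d, against 593 and 584. Array values have no true zero, so no marker was at 0.

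Cell division genes rose in 11 of 11 at 3 d, with a median of 2.21, and in 2 of 11 at 14 d (Top2a at 0.98 and Aurkb at 1.45), with a median of 0.38. The 2 of 11 lay near the 13.6% of all genes called higher at 14 d. Most of these genes were below the 40th percentile of both naive arrays (6.56 and 6.55), such as Top2a (5.86 and 6.07) and Bub1b (4.79 and 4.85). They passed the filter through arrays where they were high, so the counts that involve 3 d partly follow from the filter. Between 3 d and 14 d limma called 10 of 11 lower, and 0 of 10 members, where 1.82% of all genes were. The 0 of 10 lay near that share. Against naive tissue, the count of cell division genes called higher at 14 d was 6 without the young 14 d array. The cells in which these genes were expressed were not measured.

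Neuronal genes fell in 4 of 12 at 3 d and 7 of 12 at 14 d, led by Nefm (-0.94 and -1.53), a neurofilament subunit, Gad1 (-0.46 and -0.78), Rbfox3 (-0.43, adjusted p = 0.05, and -0.71), Gad2 (-0.61 and -0.68) and Nefl (-0.48 and -0.64). Their summed level was 32195 and 32215 at 3 d and 29314 and 30520 at 14 d, against 39366 and 40925 in naive tissue. The count at 3 d was 0 without the young naive array, 1 without the aged naive array or either 3 d array, and 7 without either 14 d array, and at 14 d it was 2 without the aged and 3 without the young naive array. With trended and robust variances it was 7 at 3 d and 11 at 14 d.

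Astrocyte genes rose in 2 of 9 at 3 d (Gfap at 1.86 and Gja1 at 0.43), where Gjb6 fell by 0.59, and in 4 of 9 at 14 d. Of 8 oligodendrocyte genes Mog (-0.50) and Mal (-0.55) fell at 3 d, and at 14 d Cldn11 rose by 0.65 and Mog fell by 0.42. Apart from the 4 of 9 astrocyte genes at 14 d, these small counts were not far from the shares over all genes. Those shares were 14.4% higher and 7.87% lower at 3 d, and 13.6% and 11.4% at 14 d. Endothelial genes rose in 5 of 10 at 3 d and 4 of 10 at 14 d, with Tie1 at 1.11 and 0.66 and Pecam1 at 0.996 and 0.50. Neuronal, astrocyte and oligodendrocyte markers were above the array median on all 6 arrays, with lowest values of 8.3, 7.83 and 9.42.

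The genes most like the members in pattern were sought by the Euclidean distance between log2 values centred on each gene's mean over the 6 arrays. Nearest to the mean profile of the members were Vamp5 (distance 0.17), Dpp7 (0.19), Tap1 (0.21), Syngr2 (0.23) and Prelp (0.24). Among the members themselves, P2ry12 (0.19), Sall1 (0.20) and Cx3cr1 (0.21) were closest to that profile, and Slc2a5 (1.10), Tmem119 (1.02) and Selplg (0.88) farthest. Pearson correlations of the 5 nearest genes with the profile, over 6 arrays that share the same 3 conditions, were between 0.993 and 0.998. Those genes were picked for their small distance, so high correlations follow from the choice.

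For single members, Syngr2, Hexa and Plod1 were nearest to P2ry12, and Nek6, Ptbp3 and Wasf2 to P2ry13. Tlr3 (0.15), Zc3hav1 (0.16) and Cd48 (0.17) were nearest to Csf1r, and Grn (0.23), C1qb (0.26) and Itgal (0.32) to Slc2a5. Apol3l1, Atp6v0e1 and Lap3 were nearest to Tmem119, at distances of 0.17 to 0.18. No other member was among the 3 nearest of any of these 5, although members could be.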

How the data were processed

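Each array has 1 deposited log2 value per probe set. The log base was read off from the spread of the numbers, since no label states it. The authors worked in R 2.14.0 with affy, per the submitters' processing notes. How background, probe summaries and scaling were handled is not given in the sources used here, nor is a genome build. The 6 array medians lie close together (7.09 to 7.15), so a shift common to all genes would not be visible.

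The platform annotation gives 1 symbol to 15209 of the 28826 probe sets and several to 306, and 13311 are unnamed here. Probe sets with 1 symbol entered where at least 1 array had them at or above its 40th percentile, and each gene was represented by its probe set of highest mean. A list gene that was low on the naive arrays could thus enter through stroke arrays alone, so the list counts of rising genes partly follow from the filter. Limma 3.58.1 in R 4.3.3 fitted time (naive, 3 d, 14 d) and age as additive terms over 6 arrays, with 2 residual degrees of freedom, moderated variances (5.56 prior degrees of freedom) and a threshold of 0.05 on p-values adjusted over 10947 genes by Benjamini-Hochberg. A second model added an age difference of the stroke response. Arrays are pools and no group has a replicate, so spread between pools of 1 condition was not measured. The p-values rest on how far the arrays depart from additive time and age effects. That departure mixes pool spread, which may be technical, with any age difference of the response, and its estimate is drawn largely from all genes. No batch information was given, so batch and group cannot be told apart.

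The members and lists were chosen with earlier results of these data known. Of 203 list entries 179 were measured, 1 through a synonym (Fcrl2 for Fcrls). The text names all members, all ligands and partners, for other lists up to 5 called genes with the largest change (Ccr2, Smad3, genes not called and those named for a small count were chosen after their values were seen), and the nearest genes in pattern. Promoter sequences are those of RefSeq, assembly GRCr8. The fits were tested on simulated data. The fits were repeated after quantile normalization or median centring, with no filter or one at the 60th percentile, with the mean of probe sets, with trended and robust variances, without age, and without each array.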

Additional observations from a re-analysis of the deposited data

How the results depend on the processing

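All 10 members kept a change above 0 at 3 d and at 14 d under each of the 13 alternatives. The count of members called ranged from 8 to 10 at 3 d and from 9 to 10 at 14 d, and the calls that changed were those of Tmem119 and Selplg, at 3 d, and of Tmem119, at 14 d. The count at 14 d against 3 d was 1 with age left out, ranged from 0 to 2 when 1 array was left out, and was 2 under the other alternatives; leaving out an array leaves 1 residual degree of freedom. With 1 array left out, the small 14 d against 3 d changes turned in sign for P2ry13 (-0.195 to 0.362), Gpr34 (-0.138 to 0.285) and Slc2a5 (-0.097 to 0.247), and the aged minus young difference of Olfml3 ranged from -0.115 to 0.08. For aged minus young the count was 0 under all 12 alternatives run. For the age difference of the response it was 0 under the 6 run, and leaving out an array left no degrees of freedom, so none was run. The number of all genes called ranged from 746 to 3726 at 3 d, against 2432, from 752 to 3470 at 14 d, against 2734, and from 221 to 573 for 14 d against 3 d, against 346. For the age difference of the response it reached 45 with trended and robust variances, against 0. Each group was 1 pool, so no pairing of animals was possible. The age term sets the arrays of 1 age side by side.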
